A study of Mus musculus with 8 samples.

Results

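The 38 genes described here are 20 cytosolic aminoacyl-tRNA synthetase genes and 18 genes of the amino-acid response that the transcription factor ATF4 is known to drive. They were chosen by name and looked up among the mRNA reads of nanopore direct RNA sequencing. All 38 had reads, of 13120 genes with a read in the whole series. They held 11123 of 1926118 kept reads, where a read counts once for each transcript it aligned to. The cells were wild-type mouse P19 cells, an embryonal carcinoma line that was kept undifferentiated, and all 4 groups therefore share 1 line and 1 genotype. MHY groups received 10 µM of MHY1485, a compound sold as an mTOR activator, for 24 h or 48 h, and DMSO groups received the same amount of solvent for the same times, with medium renewed every 24 h. Each group had 2 biological replicates, 8 libraries in all. Libraries keep their deposited numbers, which serve as names only: at 24 h each treatment had a library 21 and a library 23, and at 48 h each had a library 24 and a library 25. The deposited reads carry a column headed sample, which divides those of 24 h into 3 sets and those of 48 h into 2. These sets are called runs here, which is a reading of that column and not a label. All 3 runs at 24 h and both runs at 48 h held DMSO and MHY libraries, and no run held both time points, so that time and run cannot be told apart.

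Aminoacyl-tRNA synthetases load each tRNA with its amino acid and so supply the ribosome. ATF4 is a transcription factor whose own mRNA is translated better when the initiation factor eIF2 is phosphorylated, as in amino-acid shortage, and whose level also depends on mTORC1. It binds C/EBP-ATF response elements, where it pairs with C/EBP proteins, and it is known to raise genes for serine, proline and asparagine synthesis, the mitochondrial folate cycle, amino-acid transporters and many cytosolic synthetases.

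A read of direct RNA sequencing is 1 RNA molecule read from its 3′ end. Reads were counted per gene, once for each transcript they aligned to, and not divided by length. Levels below are thus compared between libraries and not between genes. Libraries held 178369 to 316546 kept reads, of which 948 to 2232 fell on the 38 genes. Levels are normalized RPM (reads per 1000000 reads), in which library sizes were set by the median ratio of each library to the mean over libraries. Of the 38 genes, 37 had 30 or more reads over the 8 libraries, 34 had 10 or more reads in at least 2 libraries and could be tested for read count, and 25 had 10 or more reads in every library and could be tested for tail length. The 4 genes too sparse for the count test were Slc7a11 (7 reads), Ddit3 (35), Cebpb (38) and Sesn2 (54). In bulk RNA, fewer cells of a type and less RNA per cell cannot be told apart. Of 12 markers of pluripotent or embryonal carcinoma cells 11 had reads, with Pou5f1 at 2177 to 2985 and Sox2 at 92.5 to 178 normalized RPM, and Zfp42 had none. Their sum ranged from 4449 to 4644 in DMSO and from 3786 to 4406 in MHY at 48 h. Neuron markers, of which 3 of 9 had no reads, Neurog1 and Dcx among them, ranged from 347 to 364 in DMSO and from 267 to 282 in MHY at 48 h when summed. Markers of fibroblasts or mesoderm, 4 of 5 with reads and Col3a1 at 0, summed to 49.0 to 81.9 in DMSO and 40.4 to 44.2 in MHY at 24 h, and to 103 to 247 in DMSO and 44.1 to 190 in MHY at 48 h. Of these, T (brachyury) ranged from 17.3 to 237 over the 8 libraries. The part of these lists in the differences given below was not tested.

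RefSeq promoter windows (GRCm38.p6, 250 bases before to 50 after the gene start) were at hand for 30 of the 38 genes. There were none for Cars, Hars, Lars, Nars, Rars, Vars, Wars and Slc7a5. The letters of the C/EBP-ATF response element, TGATGNAA, were looked up on both strands. They were found in the windows of 9 of the 30 genes (30%) and in those of 4.51% of all 27025 genes of the table. Of the 11 matches 10 are shown, since this is the element that ATF4 binds, in capitals and with 11 bases of either side, on the strand of the gene. A match on the other strand reads TTNCATCA.
Asns, chr6:7693214-7693243, minus strand: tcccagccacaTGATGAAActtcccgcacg
Trib3, chr2:152344028-152344057, minus strand: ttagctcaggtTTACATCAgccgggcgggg
Slc7a11 first match, chr3:50443661-50443690, minus strand: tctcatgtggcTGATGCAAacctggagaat
Slc7a11 second match, chr3:50443642-50443671, minus strand: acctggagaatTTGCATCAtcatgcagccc
Pycr1, chr11:120643833-120643862, minus strand: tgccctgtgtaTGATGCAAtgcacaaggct
Aars, chr8:111033840-111033869, plus strand: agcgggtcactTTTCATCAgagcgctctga
Gars, chr6:55037960-55037989, plus strand: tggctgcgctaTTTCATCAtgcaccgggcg
Iars, chr13:49682126-49682155, plus strand: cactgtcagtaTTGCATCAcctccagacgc
Tars, chr15:11399655-11399684, minus strand: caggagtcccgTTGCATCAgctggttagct
Yars, chr4:129189895-129189924, plus strand: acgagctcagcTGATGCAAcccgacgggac

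A match describes these letters in this window and is not a measured binding site. The windows of the other 21 genes, among them Atf4, Atf5, Slc3a2, Sars and Psph, did not hold these letters. In 26 of the 30 genes the end of a window lay in an annotated transcript of the gene, and in Dars, Kars, Sars and Mthfd1l, all without a match, it did not.

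After 24 h of MHY, no member passed the test. limma voom called 0 of 34 members at an adjusted p under 0.05, while it called 2 of all 4116 genes tested (0.0486%). At an unadjusted p under 0.05, 0 members were higher and 2 were lower, against 2.21% and 2.26% of all genes. The median log2 fold change was 0.02 over the members and -0.02 over all genes, and 18 of 34 members lay above 0. Both MHY libraries stood above both DMSO libraries for 5 members (Asns, Aars, Aldh18a1, Psph, Wars) and below for 5 (Qars, Tars, Farsa, Farsb, Vars), where 15.7% and 18.9% of all genes did.

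The pair with an unadjusted p under 0.05 at 24 h were synthetases. Qars, which charges glutamine tRNA, had 174 and 182 normalized RPM in DMSO libraries 21 and 23 and 115 and 104 in MHY libraries 21 and 23. Its log2 fold change was -0.69 (SE 0.28, limma adjusted p = 0.958). Tars, which charges threonine tRNA, had 234 and 179 in DMSO and 124 and 144 in MHY (log2 -0.59, SE 0.26, limma adjusted p = 0.958). In both genes the groups did not overlap, and neither passed the adjusted test.

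After 48 h of MHY, again no member passed the test across all genes, and members lay on both sides of 0 (19 of 34 above). limma voom called 0 of 34 members, against 71 of 4116 genes (1.72%, 17 of them higher). At an unadjusted p under 0.05, 10 members were higher, which is 29.4% of those tested against 5.05% of all genes, and 2 were lower against 7.24% of all genes. These 10 were Atf4, Atf5, Trib3, Asns, Psph, Slc3a2, Sars, Gars, Nars and Aars, and the 2 were Eprs and Pycr1. Atf5 had 10 or more reads only in the MHY 48 h libraries. It was thus tested only through the group where it is high, and it gives no support to this excess. The median log2 fold change was 0.11 over the members and -0.02 over all genes. Both MHY libraries stood above both DMSO libraries for 8 members and below for 4, where 18.6% and 21.3% of all genes did.

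That excess depended on the MHY and DMSO libraries numbered 24. Without MHY library 24, 1 of 32 members tested was higher at an unadjusted p under 0.05 (3.13%, against 3.72% of all genes), and the median over members was 0.01. Atf5 and Trib3 were then no longer among those tested. Without DMSO library 24 the count was 3 of 34 (8.82%, against 3.53%), and without DMSO library 25 or MHY library 25 it was 9 of 33 (27.3%, against 2.75%) and 10 of 33 (30.3%, against 6.05%). MHY library 24 also gave the 38 genes the largest share of its reads, 0.716% (95% Wilson interval 0.687 to 0.747), against 0.483% to 0.598% in the other 7. When libraries were scaled by their total reads, the median of all genes at 48 h moved from -0.02 to 0.10, the share of called genes that were higher moved from 23.9% to 53.3%, and Sars and Slc3a2 passed the test (adjusted p = 0.0350 and 0.0360).

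**Figure D1:**
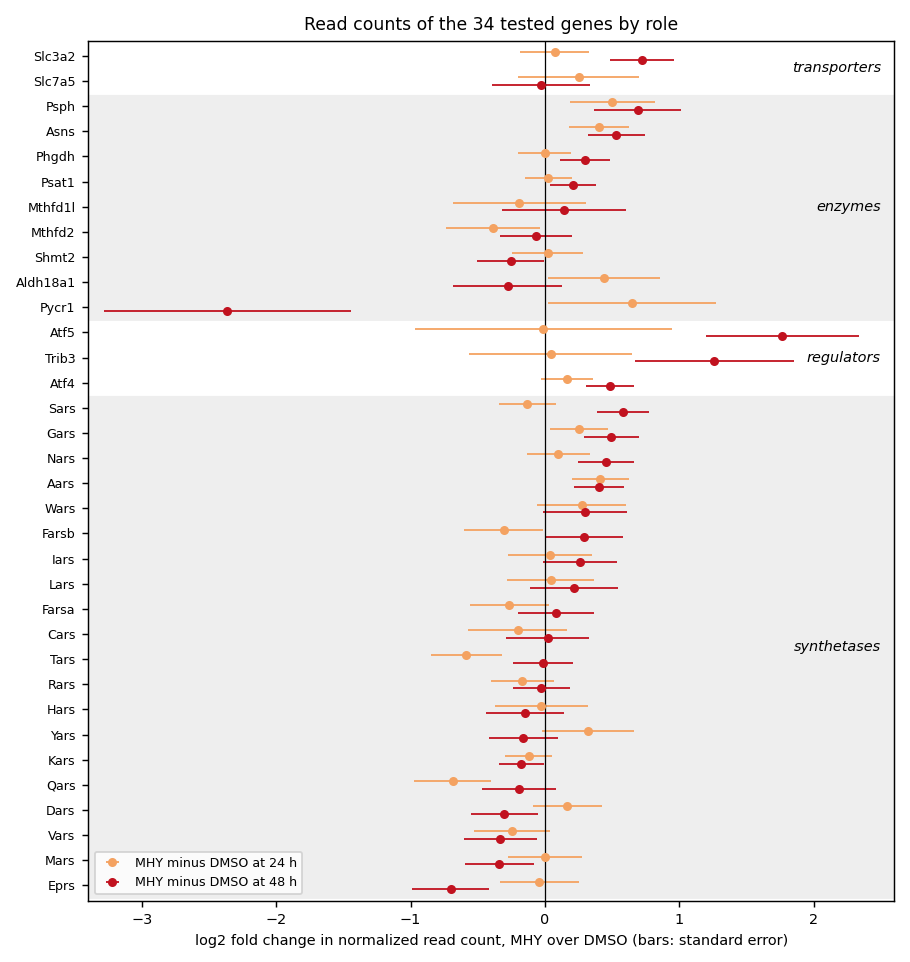
Log2 fold change of the normalized read count, MHY over DMSO, for the 34 tested genes grouped by role (points, limma estimates; bars, standard errors; orange, 24 h; red, 48 h). The 3 tested regulators, with Asns, Psph and Slc3a2, lie right of 0 at 48 h, synthetases lie on both sides, and Pycr1 at 48 h lies farthest left.

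Among regulators, Atf4 itself was read most, with 726 reads (ENSMUST00000109605, chr15:80255184-80257541, mm10). It had 397 and 301 normalized RPM in the DMSO 24 h libraries, 367 and 398 in the MHY 24 h libraries, 281 and 345 in the DMSO 48 h libraries and 503 and 376 in the MHY 48 h libraries. The groups overlapped at 24 h (log2 0.16, SE 0.19). At 48 h both MHY libraries were above both DMSO libraries, with log2 0.48 (SE 0.18, limma adjusted p = 0.170). Without MHY library 24 the value was 0.26 (SE 0.22), and without MHY library 25 it was 0.67 with an adjusted p of 0.0193.

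Atf5, a bZIP factor that is translated under the same conditions as ATF4, had the highest fold change of the 34 tested members at 48 h, from few reads. It passed the filter of 10 reads only through the MHY 48 h libraries, so this rank was favored by the filter. Its libraries held 4 and 6 reads in DMSO and 28 and 12 in MHY at 48 h, or 18.7 and 19.5 against 82.4 and 54.4 normalized RPM. The fold was 3.40 (log2 1.76, SE 0.57, limma adjusted p = 0.0783). At 24 h the reads were 5 and 3 in DMSO and 4 and 2 in MHY, and the groups overlapped (log2 -0.01, SE 0.96). Of the Atf5 reads, which fell on 2 transcripts, 18.8% had a mapping quality of 10 or more.

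Trib3, a pseudokinase that ATF4 induces and that feeds back on it, had 54.4 and 18.6 in DMSO and 22.1 and 40.4 in MHY at 24 h. At 48 h it had 18.7 and 19.5 in DMSO and 58.8 and 36.3 in MHY (log2 1.26, SE 0.59, limma adjusted p = 0.346). The DMSO libraries of 24 h lay farther apart than the group means did at 48 h.

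Ddit3, Sesn2 and Cebpb could not be tested. Ddit3, which encodes the stress factor CHOP, had 9.37 and 19.5 normalized RPM in DMSO and 50.01 and 13.6 in MHY at 48 h, so that only library 24 (17 reads) stood above. Its annotated transcript shares 68 bases with the 3′ end of Mars on chromosome 10. Sesn2, a leucine sensor upstream of mTORC1, had 9.37 and 16.3 in DMSO and 64.7 and 31.7 in MHY at 48 h, and 16.3, 26.1, 26.5 and 11.5 in the 4 libraries of 24 h in the same order. Cebpb, the partner factor of ATF4, had 14.0 and 26.0 in DMSO and 23.5 and 22.7 in MHY at 48 h and overlapped. As a share of all kept reads, the 6 regulators together took 0.0351% and 0.0433% in DMSO and 0.0854% and 0.0551% in MHY at 48 h. Both MHY values lay above both DMSO values there and overlapped at 24 h (0.0502% and 0.0366% against 0.0453% and 0.0488%).

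**Figure D2:**
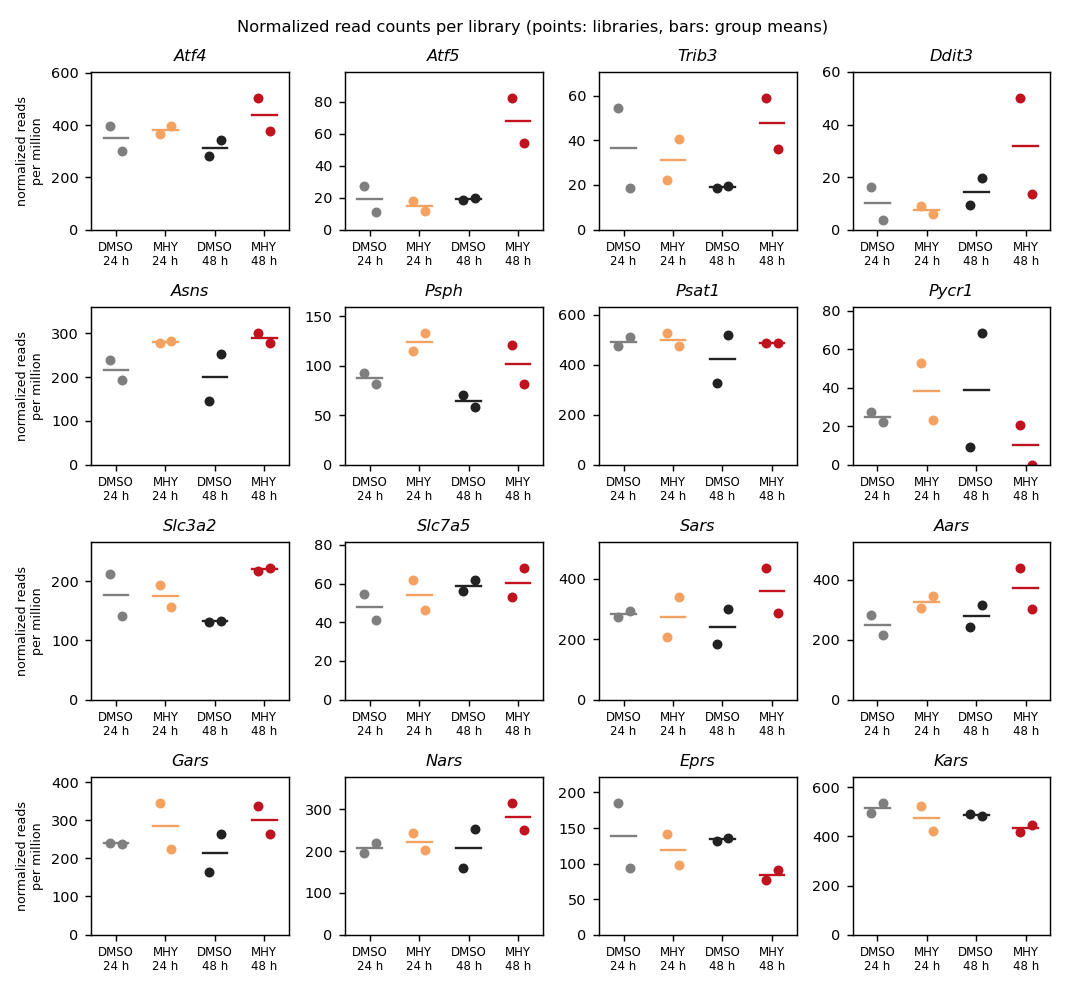
Normalized RPM in each library for 16 of the genes (points, 2 libraries a group; bars, group means; each vertical axis starts at 0). In Atf5 and Slc3a2 both MHY 48 h points lie above all other points, in Sars, Aars and Nars only the first MHY 48 h library does, and in Eprs both lie below all others.

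Of the 9 enzymes, 2 read higher at an unadjusted p under 0.05 at 48 h and 1 lower, against 5.05% and 7.24% of all genes, and the median log2 was 0.14 against -0.02. Asns (ENSMUST00000031766, chr6:7675169-7693254, mm10), asparagine synthetase and a model ATF4 target, had 239 and 194 in DMSO and 278 and 283 in MHY at 24 h, and 145 and 254 in DMSO and 300.0 and 277 in MHY at 48 h. It stood higher in both MHY libraries at both times, by log2 0.40 (SE 0.22, limma adjusted p = 0.958) and 0.53 (SE 0.21, limma adjusted p = 0.207). The DMSO 48 h libraries lay farther apart than the group means, and the value at 48 h was 0.19 without DMSO library 24 and 0.99 without DMSO library 25.

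Psph, which makes serine in the last step of its synthesis, also stood higher in both MHY libraries at both times. It had 92.5 and 81.9 in DMSO and 115 and 133 in MHY at 24 h (log2 0.50, SE 0.32), and 70.2 and 58.5 in DMSO and 121 and 81.6 in MHY at 48 h (log2 0.69, SE 0.32, limma adjusted p = 0.347). Without MHY library 24 the value at 48 h was 0.37 (SE 0.42). The other serine enzymes had smaller differences. Psat1, the most read enzyme with 927 reads, had 473 and 510 in DMSO and 526 and 473 in MHY at 24 h, and 328 and 517 in DMSO and 488 and 485 in MHY at 48 h, where the groups overlapped (log2 0.21, SE 0.17). Phgdh, which starts serine synthesis, had log2 0.00 (SE 0.20) at 24 h and 0.30 (SE 0.19, limma adjusted p = 0.540) at 48 h.

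Pycr1, which makes proline, had the lowest fold change at 48 h (log2 -2.36, SE 0.92, limma adjusted p = 0.199), and its reads were few and uneven. There were 2 and 21 reads in DMSO and 7 and 0 in MHY, so the groups overlapped, and 0 of 214090 reads allows up to 13.6 normalized RPM. Without MHY library 25 the value was -0.76 (SE 0.72), and it passed the test when either library 24 was left out (adjusted p = 0.0499 without that of DMSO and 0.0409 without that of MHY). At 24 h it had 5 and 6 reads in DMSO and 12 and 4 in MHY. The enzymes of the mitochondrial folate cycle, Shmt2, Mthfd2 and Mthfd1l, and the proline enzyme Aldh18a1 ranged from -0.28 to 0.14 at 48 h and from -0.39 to 0.44 at 24 h, with none at an unadjusted p under 0.05.

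Slc3a2, the heavy chain that carries the transporters SLC7A5 and SLC7A11 to the membrane, had close values within each group at 48 h. It had 131 and 133 in DMSO and 218 and 222 in MHY at 48 h, a fold of 1.65 (log2 0.72, SE 0.24, limma adjusted p = 0.0865). Leaving out any of the 4 libraries of 48 h kept the log2 value between 0.71 and 0.74, and Slc3a2 was the member still higher at an unadjusted p under 0.05 without MHY library 24. At 24 h the groups overlapped, with 212 and 141 in DMSO and 194 and 156 in MHY (log2 0.07, SE 0.26). Its partner Slc7a5, the light chain for large neutral amino acids, had a log2 value of -0.03 (SE 0.37) at 48 h and 0.25 (SE 0.45) at 24 h. The cystine transporter Slc7a11 had 0 and 1 reads in DMSO and 4 and 1 in MHY at 24 h, and 0 and 1 in DMSO and 0 and 0 in MHY at 48 h, so no change was detectable at this depth.

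Synthetases lay on both sides of 0. At 48 h, 10 of 20 lay above 0 and the median was 0.00. Sars, which charges serine tRNA, had 272 and 294 in DMSO and 208 and 340 in MHY at 24 h, and 183 and 299 in DMSO and 435 and 286 in MHY at 48 h. Its groups overlapped at both times (log2 -0.13, SE 0.21, and 0.58, SE 0.19, limma adjusted p = 0.102). The value at 48 h was 0.24 without MHY library 24 and 0.27 without DMSO library 24. It was 0.84 without MHY library 25 and 0.98 without DMSO library 25.

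The other 3 synthetases with an unadjusted p under 0.05 and a higher level had the same order of libraries. Gars, for glycine, had 164 and 263 in DMSO and 338 and 263 in MHY at 48 h (log2 0.49, SE 0.20, limma adjusted p = 0.250). Nars, for asparagine, had 159 and 254 against 315 and 249 (log2 0.45, SE 0.21, limma adjusted p = 0.339). Aars, for alanine, had 244 and 315 against 438 and 304 (log2 0.40, SE 0.19, limma adjusted p = 0.344). Without MHY library 24 the values were 0.29, 0.26 and 0.11, and without DMSO library 24 they were 0.20, 0.17 and 0.24. Without DMSO library 25 they were 0.88, 0.83 and 0.61, and without MHY library 25 they were 0.65, 0.59 and 0.63, where Aars passed the test (adjusted p = 0.0476). In each, MHY library 24 was the highest of the 4 and MHY library 25 lay below DMSO library 25. At 24 h, Gars had 239 and 238 in DMSO and 345 and 225 in MHY, Nars 196 and 220 against 243 and 202, and Aars 283 and 216 against 305 and 346, where only Aars did not overlap (log2 0.41, SE 0.21).

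Eprs, which charges both glutamate and proline tRNA, was the synthetase that read lower at 48 h. It had 131 and 137 in DMSO and 76.5 and 90.7 in MHY (log2 -0.70, SE 0.29, limma adjusted p = 0.234), with no overlap, and 185 and 93.0 in DMSO and 141 and 98.1 in MHY at 24 h, with overlap. Vars, Dars and Kars also had both MHY libraries below both DMSO libraries at 48 h, with log2 values of -0.33 (SE 0.27), -0.30 (SE 0.25) and -0.18 (SE 0.17). Kars, the most read synthetase with 922 reads, had 495, 536, 526 and 421 in the libraries of 24 h and 492, 485, 418 and 449 in those of 48 h (DMSO first). The remaining 12 synthetases (Cars, Farsa, Farsb, Hars, Iars, Lars, Mars, Qars, Rars, Tars, Wars and Yars) ranged from -0.34 to 0.30 at 48 h.

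**Figure D3:**
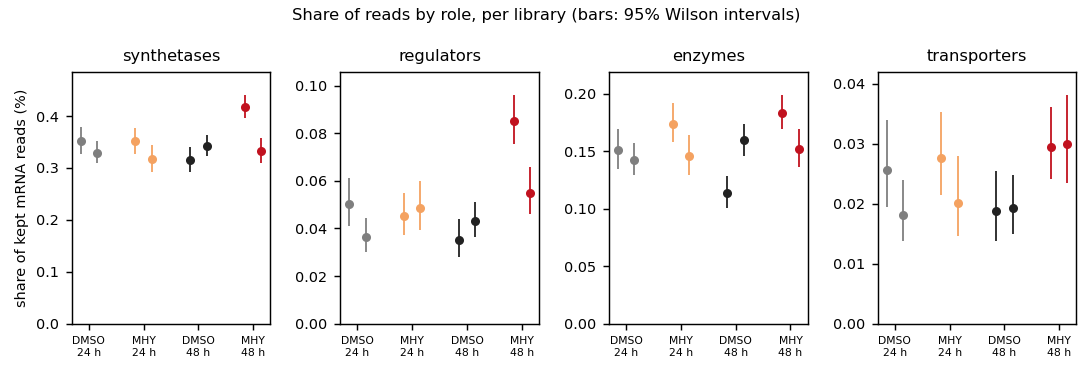
Share of kept mRNA reads taken by each role in each library, in percent (points, libraries; bars, 95% Wilson intervals, which cover counting error only). In regulators and transporters both MHY 48 h libraries lie above both DMSO 48 h libraries, while in synthetases and enzymes only the first MHY 48 h library lies above them.

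The share of reads on all 38 genes differed by 0.125 and 0.115 percentage points between MHY and DMSO within the 2 runs of 48 h, against 0.119 pooled. The runs hold the same libraries, and without MHY library 24 the pooled difference was 0.0459.

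The MHY effects at 48 h and at 24 h were compared as an interaction. limma voom called 0 of 34 members, against 14 of 4116 genes (0.340%). At an unadjusted p under 0.05 there were 2 members, Sars (0.71, SE 0.29, limma adjusted p = 0.524) and Pycr1 (-3.01, SE 1.11, limma adjusted p = 0.415), against 6.63% of all genes. For Atf4 the difference of the effects was 0.32 (SE 0.26), for Asns 0.13 (SE 0.31) and for Slc3a2 0.65 (SE 0.35), so the higher levels at 48 h are not shown to differ from those at 24 h.

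The solvent groups were compared over time in the same way, with time and run confounded. limma voom called 0 of 34 members and 0 of 4116 genes (0%), and 3 members had an unadjusted p under 0.05 against 4.25% of all genes. Yars, for tyrosine, was higher at 48 h (136 and 150 against 87.1 and 70.7, log2 0.88, SE 0.31, limma adjusted p = 0.806). Farsb, a subunit of the phenylalanine enzyme, and Qars were lower, at 84.3 and 94.3 against 141 and 134 and at 112 and 130 against 174 and 182. In MHY, Yars had 110 and 80.8 at 24 h and 153 and 99.7 at 48 h. Farsb had 106 and 115 in MHY at 24 h and 103 and 122 at 48 h. Qars had 124 and 86.1 in MHY at 48 h, and Tars had 159 and 211 in DMSO and 171 and 209 in MHY.

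By the response-element letters, the 8 tested genes with a match had a median log2 of 0.33 at 48 h and 0.29 at 24 h, and the 18 tested genes with a window and no match had 0.11 and -0.01. Within synthetases the medians at 48 h were 0.26 over the 5 with a match and -0.19 over the 8 without, of which Dars, Kars and Sars are among those whose window did not end in an annotated transcript. Of the 10 genes with an unadjusted p under 0.05 and a higher level at 48 h, Asns, Trib3, Aars and Gars held the letters, Nars had no window, and the other 5 did not hold them. No test was made of this split.

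Related genes outside the list were read from lists of the same pathways. Of 28 other genes known as ATF4 targets or of the integrated stress response, 13 were tested. At 48 h, 1 rose and 1 fell, where 1.72% of all genes were called. Sqstm1, an autophagy receptor, had 192 and 166 in DMSO and 324 and 277 in MHY (log2 0.77, SE 0.21, limma adjusted p = 0.0239). Ddit4, an inhibitor of mTORC1 also known as REDD1, had 108 and 257 in DMSO and 50.01 and 54.4 in MHY (log2 -1.75, SE 0.32, limma adjusted p = 1.32e-05). The call of Ddit4 was lost without DMSO library 25 (log2 -1.04, limma adjusted p = 0.379). That of Sqstm1 was lost by limma-trend (log2 0.74, adjusted p = 0.136) and without DMSO library 24 (0.86, adjusted p = 0.0527), DMSO library 25 (0.65, adjusted p = 0.441) or MHY library 24 (0.65, adjusted p = 0.588), while its log2 value stayed between 0.65 and 0.86. The median of these 13 was 0.11 at 48 h, equal to that of the members to 2 decimals, and 0.43 at 24 h, where none was called and 6 of the 13 stood higher in both MHY libraries, against 15.7% of all genes, and 1 lower, against 18.9%. That one was Ddit4, with 229 and 216 in DMSO and 163 and 138 in MHY at 24 h and an unadjusted p under 0.05 (log2 -0.53, SE 0.25, limma adjusted p = 0.958). The most read of them, Eif4ebp1, which encodes a translation repressor that mTORC1 phosphorylates, had 593 and 450.3 in DMSO and 671 and 692 in MHY at 24 h, and 370.0 and 514 in DMSO and 571 and 580.2 in MHY at 48 h. It stood higher in both MHY libraries and had an unadjusted p under 0.05 at both times, by log2 0.42 (SE 0.17, limma adjusted p = 0.958) and 0.38 (SE 0.17, limma adjusted p = 0.305).

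No gene of the other 5 lists was called at either time. Of 17 mitochondrial synthetases 5 were tested, and the lowest unadjusted p belonged to Yars2 at both times (log2 -0.59, SE 0.40, at 24 h and 0.70, SE 0.33, at 48 h). For the 3 scaffold proteins of the multi-synthetase complex it belonged to Aimp1 at 24 h (-0.33, SE 0.24) and Aimp2 at 48 h (0.34, SE 0.22). For the 4 tested genes of eIF2 and its kinases it belonged to Eif2s2 (-0.21, SE 0.18) and Eif2s3x (-0.57, SE 0.27). For the 8 tested parts and regulators of mTORC1 it belonged to Rheb (0.52, SE 0.28) and Akt1s1 (0.89, SE 0.41). For the 12 one-carbon and nucleotide genes it belonged at 48 h to Adsl (0.81, SE 0.28).

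Poly(A) tails of these mRNAs were of ordinary length for the cells, with a few long ones. Over the 37 genes with 30 or more reads, the median of the gene medians was 103.5 nt, against 104.9 nt over all 5842 such genes. Cebpb (146 nt), Slc7a5 (125 nt) and Atf4 (120 nt) had the longest tails, at percentiles 98.8, 88.4 and 83.1 of all genes. Kars (86.3 nt), Phgdh (88.3 nt) and Qars (88.4 nt) had the shortest, at percentiles 6.49, 9.06 and 9.36. The middle 50% of Atf4 reads had tails of 79.9 to 159 nt and the middle 50% of Kars reads 58.5 to 121 nt.

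No member passed the test of the median tail. limma called 0 of 25 at 24 h and 0 of 25 at 48 h, against 0 (0%) and 17 (0.872%) of 1949 genes. At an unadjusted p under 0.05 there were 0 members at 24 h, against 3.95% of all genes, and 2 at 48 h, against 8.36%. The median difference over members was 3.01 nt at 24 h and 0.95 nt at 48 h, where all genes had -0.71 and -3.02 nt. At 48 h, 14 of 25 members had a longer median tail in MHY, while 38.2% of all genes did.

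Both members with an unadjusted p under 0.05 had enough reads to look at by library. Rars, for arginine, had median tails of 96.3 and 85.7 nt in DMSO and 110 and 102 nt in MHY at 24 h, and 76.5 and 92.2 nt in DMSO and 97.2 and 119 nt in MHY at 48 h (20.1 nt longer, SE 9.39, limma adjusted p = 0.573). Its MHY libraries stood above its DMSO libraries at both times. Atf4 had 129 and 115 nt in DMSO and 125 and 130 nt in MHY at 24 h, and 112 and 136 nt in DMSO and 104 and 118 nt in MHY at 48 h. The fitted difference at 48 h was -19.0 nt (SE 7.61, limma adjusted p = 0.480), and the groups overlapped, since DMSO library 25 had the longest tails and DMSO library 24 was between the MHY libraries.

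**Figure D4:**
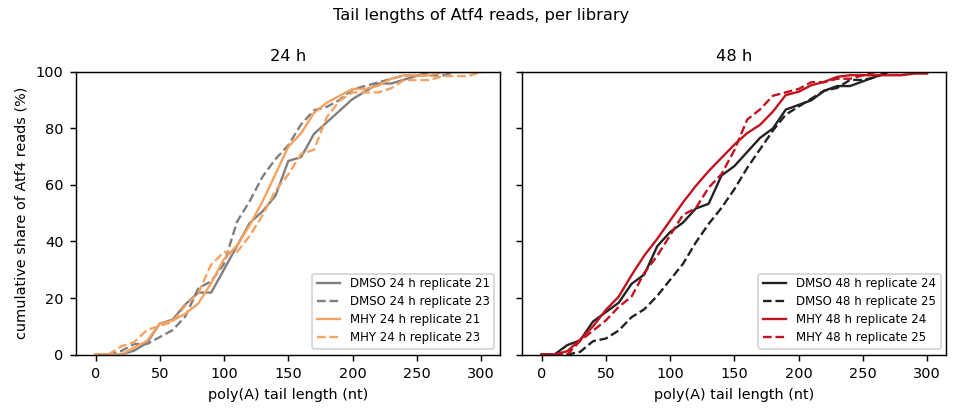
Cumulative share of Atf4 reads, in percent, by poly(A) tail length in nt, for each library (left, 24 h; right, 48 h; 60 to 171 reads a library). At 24 h the 4 lines cross, and at 48 h DMSO replicate 25 lies to the right of the other 3 from 50 to 150 nt.

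Tails were also sorted into a class under 30 nt, which is linked to decay, and a class of 30 to 90 nt. In the class of 30 to 90 nt limma called 0 of 25 members at either time, against 0% of all genes at 24 h and 0.257% at 48 h, and 1 and 3 members had an unadjusted p under 0.05, against 4.87% and 6.16%. In the class under 30 nt it called 0 of 25 at either time, against 0% and 0.359%, and 3 members had an unadjusted p under 0.05 at each time, against 5.64% and 10.6%. In Atf4 the class of 30 to 90 nt held 33.3% and 19.8% of reads in DMSO and 35.7% and 30.1% in MHY at 48 h. Those shares come from 60, 106, 171 and 83 reads.

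Pooled over all 38 genes, the median tail was 105 and 101 nt in DMSO and 107 and 109 nt in MHY at 24 h, and 97.9 and 101 nt in DMSO and 93.8 and 102 nt in MHY at 48 h. All other mRNA had 101 and 102 nt (DMSO) and 100.1 and 101 nt (MHY) at 24 h, and 96.8, 99.3, 92.4 and 98.2 nt at 48 h. Within the 3 runs of 24 h the difference of the pooled tails was 7.62, 5.80 and 0.0925 nt, against 5.08 nt over all reads. The 24 h difference was thus near 0 in 1 of the 3 runs, and at 48 h the groups overlapped.

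By role, the tails of the 6 regulators had medians of 118 and 120 nt in DMSO and 125 and 133 nt in MHY at 24 h, and of 114 and 123 nt in DMSO and 100.3 and 101 nt in MHY at 48 h. The groups did not overlap at either time and differed in opposite directions. These medians mix genes whose share of the reads differed, since Atf4 held 60 of 75 and 106 of 137 regulator reads in DMSO and 171 of 266 and 83 of 118 in MHY at 48 h, and the median tail of Atf4 alone overlapped at both times. At 24 h the MHY libraries were also longer without overlap in enzymes (105 and 102 nt against 100.1 and 98.3 nt) and in transporters (117 and 126 nt against 94.2 and 112 nt). Synthetases had 97.9 and 97.5 nt in DMSO and 88.4 and 100.0 nt in MHY at 48 h, and enzymes 92.0 and 98.9 nt against 95.4 and 108 nt, both with overlap.

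**Figure D5:**
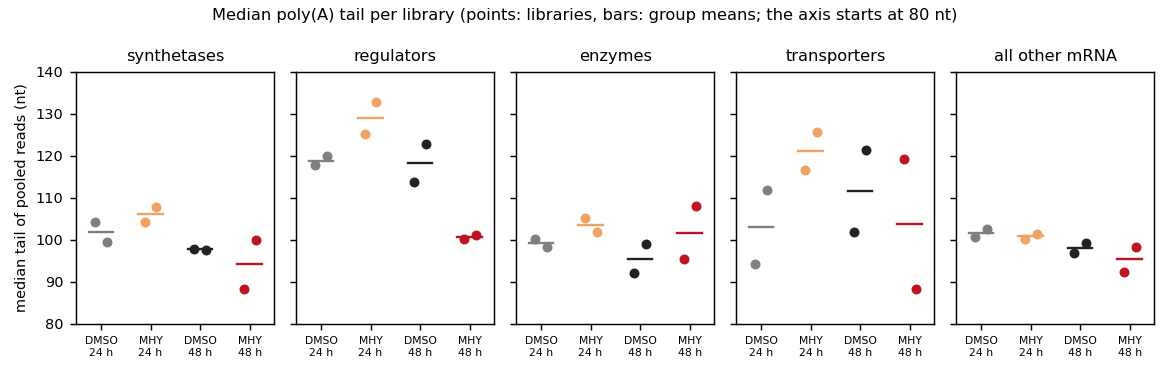
Median poly(A) tail in nt of the reads pooled by role, and of all other mRNA, in each library (points, libraries; bars, group means; the axis runs from 80 to 140 nt). Regulators lie above all other mRNA in 8 of 8 libraries, and their MHY 48 h points are the lowest of the 4 groups.

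Reads per gene mixed annotated transcripts. In 14 genes all reads fell on 1 transcript, while Qars had reads on 7, Nars on 6 and Farsa on 5. Transcripts annotated as targets of nonsense-mediated decay held 266 of the 11123 reads, most of them in Nars (79), Tars (44), Qars (40) and Lars (32), and transcripts with a retained intron held 199, of which Vars had 61, Atf4 50 and Psat1 47. Mapping quality was 10 or more in 71.2% of the reads of the 38 genes and in 71.5% of all kept reads. It was so in 0% of the reads of Iars, 1.82% of Aldh18a1 and 4.58% of Nars, which have 2, 2 and 6 transcripts with reads. In Slc3a2, 95.8% of reads on the main transcript began within 50 nt of its annotated 5′ end, and in Atf4 0% did.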

How the data were processed

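The deposited table lists 1 alignment of a nanopore direct RNA read per row. The authors called bases with Guppy, mapped reads with minimap2 2.20 to GENCODE vM17 transcripts (mm10), estimated tails with Nanopolish (in nt, used as deposited) and assigned barcodes with Deeplexicon. The deposited barcode confidence is a fraction from 0 to 1, and the deposited mapping quality is a score. Poly(A) RNA had been selected with oligo-dT beads. The members and lists were chosen with earlier results of these data known.

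Of 2439710 alignments, 2027638 carried the tag PASS. Mitochondrial (66955) and pseudogene (12169) alignments were set aside, and 1926118 reads of class mRNA were kept, each once per transcript. Reads per gene were scaled by median-of-ratios size factors. Genes with 10 or more reads in 2 or more libraries were fitted with limma 3.58.1 (voom, R 4.3.3) over all 8 libraries. Median tails and tail classes (log2 odds, with 0.5 read added to each side) were fitted with limma, weighted by reads, where each library had 10 or more. P-values were adjusted by Benjamini-Hochberg over all genes tested, at a threshold of 0.05. Intervals of shares are 95% Wilson intervals and, like the limit of 3 reads for a count of 0, cover counting error only. With 2 libraries against 2, an exact permutation test cannot go below 0.333, so none was used. Which GEO sample a library number stands for was not given, so libraries were placed by treatment and time alone. Replicates of a group differed by more than counting noise (chi-square per degree of freedom 1.19 to 1.56).

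Values in every library are given for members with an unadjusted p under 0.05 in counts or median tails, for Atf4 and Asns, and for the member with most reads in each role. Others named with values beyond that rule (such as Psat1's partners, Sesn2, Ddit3, Cebpb and Slc7a11) were chosen after their values were seen or because they could not be tested. In other pathway lists, called genes are named, or else the gene with the lowest unadjusted p. Alternatives covered scaling, filters, mapping quality, barcode confidence, transcript classes, the libraries fitted, a replicate block, limma-trend and leaving out each library. The fits were also run on simulated data, and the outcome is not given here. A few items that the rules would name are not reported here.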

Additional observations from a re-analysis of the deposited data

Results flagged for a closer look

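Among the pooled values, the levels of the 34 members tested for read count and the median tails of the 25 tested for tails, 5 measures had this pattern: both MHY libraries lay on one side of both DMSO libraries at 24 h and on the other side at 48 h. Many measures were looked at in this way and groups held 2 libraries, while members with too few reads were left out. By count, 15.7% of all genes stood higher and 18.9% lower in both MHY libraries at 24 h, and 18.6% and 21.3% at 48 h. The share of all genes that reverse is not given here, so the reversals of Farsb and Asns are not read as a result about the members. The share of reads with tails under 30 nt, over all 38 genes, was lower in MHY at 24 h (-1.147 percentage points) and higher at 48 h (0.892), a difference of 2.04. As a mean over members in place of pooled reads, which gives genes with few reads the same weight, the values were 0.418 and 0.241, so the direction at 24 h turned. In the 25 members tested per gene, 5 lay above 0 at 24 h, with a median of -0.35 log2 odds against -0.07 over all genes, and 16 at 48 h, with 0.15 against 0.41. For synthetases alone it was -1.73 and 0.727, a difference of 2.46. All other mRNA showed the same pattern, at 2.34% and 2.72% in DMSO and 2.23% and 2.17% in MHY at 24 h, and 2.87% and 2.57% in DMSO and 4.47% and 3.38% in MHY at 48 h. The median tail of regulators differed by 10.2 nt at 24 h and -17.6 nt at 48 h, a difference of -27.8 nt. The reads were pooled over genes whose shares differed (Atf4 held 60 of 75 and 106 of 137 in DMSO and 171 of 266 and 83 of 118 in MHY at 48 h), and Atf4 alone overlapped at both times. The median tail of Asns differed by -14.8 nt and 15.8 nt, a difference of 30.6 nt. These 4 differences between time points were not tested.

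Farsb differed by -27.0 normalized RPM at 24 h and 23.4 at 48 h, a difference of 50.4. The interaction was 0.60 on the log2 scale (SE 0.41, limma adjusted p = 0.871).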

How the results depend on the processing

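Most values kept their direction and their side of the threshold. For members with an unadjusted p under 0.05 and a higher count at 24 h (0), the number was 1 with total reads as scaling (2.94%, against 2.75% of all genes). It was also 1 with no filter, with mapping quality of 10 or more and with the 4 libraries of the time point. With protein-coding transcripts, an alternative chosen after seeing the data, the number was 1, and with barcode confidence of 0.9 or more it was 2. Lower at 24 h (2), it was 1 with mapping quality of 10 or more and 1 leaving out any library. At 48 h, members called (0) became 2 with total reads as scaling, where 60 of 4116 genes were called. Higher members (10) became 11 with that scaling (32.4%, against 8.14% of all genes), and their counts leaving out a library are given above. Other counts of members in this paragraph stand without the share of all genes and are not read as results. Lower members (2) became 1 with 10 or more reads in each library or the 4 libraries alone, and 0 to 3 leaving out a library. Leaving out a library, Atf4 at 24 h ranged from -0.063 to 0.33 (count, log2) and from -1.92 to 12.6 nt (median tail), both lowest and below 0 without DMSO library 23. The pooled median tail at 24 h (5.08 nt) was 7.996 as a mean over members, 7.62 in run 1, 0.0925 in run 3 and 2.89 to 7.26 leaving out a library. The share under 30 nt at 24 h (-1.15) was 0.418 as a mean over members (of 25 tested per gene, 5 lay above 0) and -1.53 to -0.761 leaving out a library, and at 48 h (0.892) it was 0.241, 0.317 in run 4 and 0.489 to 1.295. The share of 30 to 90 nt at 24 h (-1.99) was -3.62 with mapping quality of 10 or more, -4.70 as a mean over members, -4.33 in run 1, 1.66 in run 3 and -2.99 to -0.979 leaving out a library. The causes were not tested. The share of reads has no mean over members, which is the pooled share divided by the number of genes.

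Of all genes, those called at 48 h (71) were 147 with no filter, 44 with barcode confidence of 0.9 or more, 34 by limma-trend and 17 to 141 leaving out a library. At 24 h (2) they were 1 with mapping quality of 10 or more, 4 by limma-trend and 0 to 1 leaving out a library. For the interaction (14) they were 29, 7 and 5 with no filter, barcode confidence and limma-trend, 6 with mapping quality and 0 to 30 leaving out a library, for DMSO over time (0) 8 with no filter, and for median tails at 48 h (17) 0 unweighted and 0 with 4 libraries. Whether equal library numbers pair DMSO and MHY samples is unknown (correlation of deviations 0.0189 at 24 h and 0.139 at 48 h, 1949 genes). With 2 numbers at each time, this correlation cannot decide it. With the number as a replicate block, 92 genes were called at 48 h, 0 of them members. Leaving out a library leaves 1 in a group, which is assumed to vary like the others. With 2 libraries a group, sparse genes such as Atf5, Trib3 and Pycr1 are imprecise.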
